A study of Mus musculus with 24 samples.

Results

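The genes described here are 31 genes of the hepatic acute phase response and of interleukin 6 (IL-6) signalling, picked by gene symbol from a mouse liver RNA-seq count table of 24421 genes. All 31 symbols were found, and all 31 were among the 13833 genes with enough counts to be tested. The samples were pieces of the medial liver lobe of C57BL/6 mice taken 1 h or 4 h after an injection of vehicle, which was 0.1% ethanol, or of MitoCDNB at 5 mg/kg. MitoCDNB is chlorodinitrobenzene, an electrophile, coupled to a triphenylphosphonium cation that draws it into mitochondria, and it was designed to deplete glutathione and block the thioredoxin system there. Each agent was given to 6 mice per time, which makes 4 groups of 6 libraries. The sources used here give no sex, age or route of injection, and no group of uninjected mice was analysed here.

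In the acute phase response, hepatocytes change the set of plasma proteins they secrete when inflammation or injury elsewhere raises IL-6 and interleukin 1 (IL-1). IL-6 binds its receptor Il6ra together with the shared subunit Il6st (gp130), JAK kinases then phosphorylate Stat3, and Stat3 switches on target genes including its own inhibitor Socs3. IL-1 acts through Il1r1 and NF-kB and works together with IL-6 on genes such as the serum amyloids. The secreted members bind lipids, hemoglobin, heme, iron or bacterial products, form clots, inhibit proteases or mark targets for clearance.

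The 5 upstream windows are shown because their genes stand for the patterns described later: Saa2 and Lcn2 had large differences between mice, Steap4 and Fga hold a match to the STAT3 motif, and Crp was nearly constant. Each line gives the 250 bases before the RefSeq transcription start on the gene's own strand, 5′ to 3′, in assembly GRCm38.p6, the build that the browser name mm10 stands for. Capitals mark matches to the STAT3 motif TTCNNNGAA and to an NF-kB motif of GGG and CC with 5 free bases between them, searched on both strands.
Saa2, chr7:46751583-46751832, plus strand: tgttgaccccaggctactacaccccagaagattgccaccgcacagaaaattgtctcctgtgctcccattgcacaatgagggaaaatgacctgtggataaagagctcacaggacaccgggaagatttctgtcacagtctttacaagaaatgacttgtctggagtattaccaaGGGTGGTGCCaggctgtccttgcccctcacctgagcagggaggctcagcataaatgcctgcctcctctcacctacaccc
Lcn2, chr2:32387740-32387989, minus strand: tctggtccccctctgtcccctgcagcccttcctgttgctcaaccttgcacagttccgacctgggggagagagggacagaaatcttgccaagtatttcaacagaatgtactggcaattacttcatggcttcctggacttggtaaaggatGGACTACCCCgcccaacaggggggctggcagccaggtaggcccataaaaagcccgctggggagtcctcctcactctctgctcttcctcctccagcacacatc
Steap4, chr5:7960222-7960471, plus strand: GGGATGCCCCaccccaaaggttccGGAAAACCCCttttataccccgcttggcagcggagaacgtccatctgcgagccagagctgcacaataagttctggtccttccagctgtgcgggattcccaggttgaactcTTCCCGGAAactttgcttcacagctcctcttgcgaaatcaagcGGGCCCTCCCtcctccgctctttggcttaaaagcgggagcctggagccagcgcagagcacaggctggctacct
Fga, chr3:83025903-83026152, plus strand: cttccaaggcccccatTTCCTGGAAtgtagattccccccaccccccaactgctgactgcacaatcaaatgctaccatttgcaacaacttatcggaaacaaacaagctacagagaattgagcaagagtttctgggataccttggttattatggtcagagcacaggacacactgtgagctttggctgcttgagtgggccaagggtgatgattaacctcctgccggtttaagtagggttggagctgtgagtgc
Crp, chr1:172697806-172698055, plus strand: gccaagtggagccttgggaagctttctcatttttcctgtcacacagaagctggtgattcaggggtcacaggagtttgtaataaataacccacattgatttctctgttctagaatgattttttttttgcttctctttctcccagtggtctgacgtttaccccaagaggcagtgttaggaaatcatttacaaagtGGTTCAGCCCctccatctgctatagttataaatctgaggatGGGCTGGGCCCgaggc

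The RefSeq promoter table held 30 such windows for 26 of the 31 members, with none for Fgl1, Hp, Serpina3m, Orm1 and Lbp. The STAT3 motif was in 6 of the 30 windows and in 7.02% of all 32851 windows of that length in the table. Its 6 genes were Apcs, Fga, Fgb, Itih4, Socs3 and Steap4. The Socs3 window lies inside the span of the gene, and the bases after its start were not found in a coding transcript of Socs3. In Steap4 the match began at position -116 from the start, and in Fga at position -234. The NF-kB motif was in 17 windows (56.7%) against 45.8% of all windows, and a C/EBP motif, TTNNGNAA, in 22 (73.3%) against 36.8%. In Crp, 2 of the 3 NF-kB matches overlap each other. The windows of Saa1 and Saa2 were identical at 94.8% of aligned bases. These matches describe letters in the windows and not binding.

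Total counts ran from 25.1 to 37.2 M per library with a mean of 30.3 M, and the 31 members together took between 1.72% and 3.62% of a library's counts. Levels are CPM, the counts per M counts of a library after scaling its size by TMM, a trimmed mean over genes. Summed levels of 8 hepatocyte markers were 36900 to 60700 CPM, of 10 Kupffer cell markers 220 to 661 CPM and of 12 neutrophil markers 2.2 to 20.4 CPM, with 6 of the 12 reaching enough counts to be tested. Ltf, which marks neutrophil granules, was at 6.47 CPM in replicate 1 of MitoCDNB at 1 h and at no more than 0.94 CPM elsewhere. In that library the granule genes Camp, Elane and Mpo were at 0 CPM and Ngp at 0.0707 CPM. The bile duct cell marker Krt19 was at 11.4 CPM there and at no more than 1.71 CPM elsewhere. The 661 CPM belonged to replicate 4 of vehicle at 4 h, and in every other library the Kupffer cell sum was at most 386 CPM. Some libraries stand apart. At 1 h the sum of 10 brain markers was 7.07 to 11 CPM in replicates 1 to 3 of both groups and 12.8 to 17.9 CPM in replicates 4 to 6, and within vehicle Saa1, Hp, Lcn2 and Socs3 were higher in every library of the first set than in any of the second. At 4 h the same sum was 12.2 CPM in replicate 1 of vehicle and 14 CPM in replicate 2 of MitoCDNB, and 7.05 to 9.96 CPM in the other 10 libraries. Different genes carried the sums at the 2 times. At 1 h Snap25 was at 0 CPM in replicates 1 to 3 and at 0.446 to 1.15 CPM in replicates 4 to 6. Camk2a was also higher in replicates 4 to 6, and Syt1 overlapped between the sets. At 4 h Snap25 was at 0 CPM in every library. Syt1 was then at 8.77 and 11.1 CPM in those 2 libraries and at 4.28 to 7.03 CPM in the other 10. Results are therefore given within the 1 h sets and without those 2 libraries where that matters. In whole tissue, fewer cells of a type and less RNA per cell cannot be told apart.

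Per kilobase of the longest coding transcript, the most abundant members were carriers and clotting proteins. The median level over the 24 libraries was 1430 CPM per kilobase for Hpx, which carries heme, 1390 for the fibrinogen chain gene Fgg, 1260 for Hp, whose product binds free hemoglobin, and 1210 for Fga. C3, the central complement component, stood at 974 and Fgb at 749. At the other end were Il1rn, the IL-1 receptor antagonist, at 0.281, Saa3 at 1.61, Orm3 at 2.29 and Socs3 at 3.31 CPM per kilobase. The receptors lay low as well, with 9.08 for Il6st, 8.68 for Il1r1 and 4.57 for Il6ra, and the transducer Stat3 at 16.4.

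The members differed widely between mice of the same group. The standard deviation (SD) of log2 CPM within groups had a median of 0.47 over the 31 members and of 0.19 over all 13833 tested genes. Of the members, 27 lay above that median of all genes, 24 in the top 10% and 5 in the top 1%. Saa2 (SD 2.09), Saa1 (1.75), Lcn2 (1.49), Saa3 (0.83), Socs3 (0.76) and Il1r1 (0.75) had the largest values. Cp, which codes for the copper ferroxidase ceruloplasmin, had the smallest (0.14), next to Crp (0.15), C3 (0.16) and Il6st (0.16). These figures describe the libraries and were not tested.

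Saa1 and Saa2 code for the inducible serum amyloids, apolipoproteins of high-density lipoprotein that are the classical mouse acute phase reactants. Saa1 was at 904, 191, 486, 25.3, 21.8 and 35.9 CPM in replicates 1 to 6 of vehicle at 1 h. In MitoCDNB at 1 h it was at 58.9, 329, 64.8, 63.3, 22.6 and 30.1 CPM. The 3 high vehicle libraries were replicates 1 to 3, and in MitoCDNB only replicate 2 exceeded 100 CPM. Later, at 4 h, Saa1 was at 1780, 495, 189, 246, 21.9 and 599 CPM in vehicle. In MitoCDNB at 4 h it was at 286, 219, 152, 316, 71.8 and 124 CPM. Vehicle thus held both the highest and the lowest library at 4 h, and all 6 MitoCDNB libraries lay between them and below the vehicle mean of 556 CPM.

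Saa2 peaked in the same libraries and had a wider range. It ran from 7.94 to 467 CPM (median 47.1) in vehicle and from 9.22 to 157 CPM (median 16.2) in MitoCDNB at 1 h. The 4 h values ran from 5.43 CPM in replicate 5 to 1670 CPM in replicate 1 of vehicle (median 173), and from 22.9 to 127 CPM in MitoCDNB (median 61.6). The difference between MitoCDNB and vehicle was -2.08 on the log2 scale at 1 h (SE 1.16, adjusted p = 0.386) and -2.57 at 4 h (SE 1.18, adjusted p = 0.319), by the quasi-likelihood F test of edgeR with Benjamini-Hochberg adjustment over all tested genes. For Saa1 it was -1.55 (SE 0.961, adjusted p = 0.455) and -1.51 (SE 0.958, adjusted p = 0.516). Neither gene passed the threshold of an adjusted p of 0.05, the groups overlapped, and the 95% intervals for Saa1 reached from -3.55 to 0.45 at 1 h and from -3.51 to 0.49 at 4 h. Those for Saa2 reached from -4.5 to 0.33 at 1 h and from -5.02 to -0.12 at 4 h (unadjusted p = 0.0407 in edgeR). The intervals are not adjusted for the number of genes. Without replicate 1 of vehicle the 4 h difference was -1.22 for Saa2 and -0.67 for Saa1. Without replicate 2 of MitoCDNB as well, it was -1.2 for Saa2 and -0.71 for Saa1. The 2 transcripts are 87.3% identical, and 13.2% of the 50-base words of Saa1 occur in Saa2, so reads may have been shared between them by a counting step that is not given in the sources used here.

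**Figure D1:**
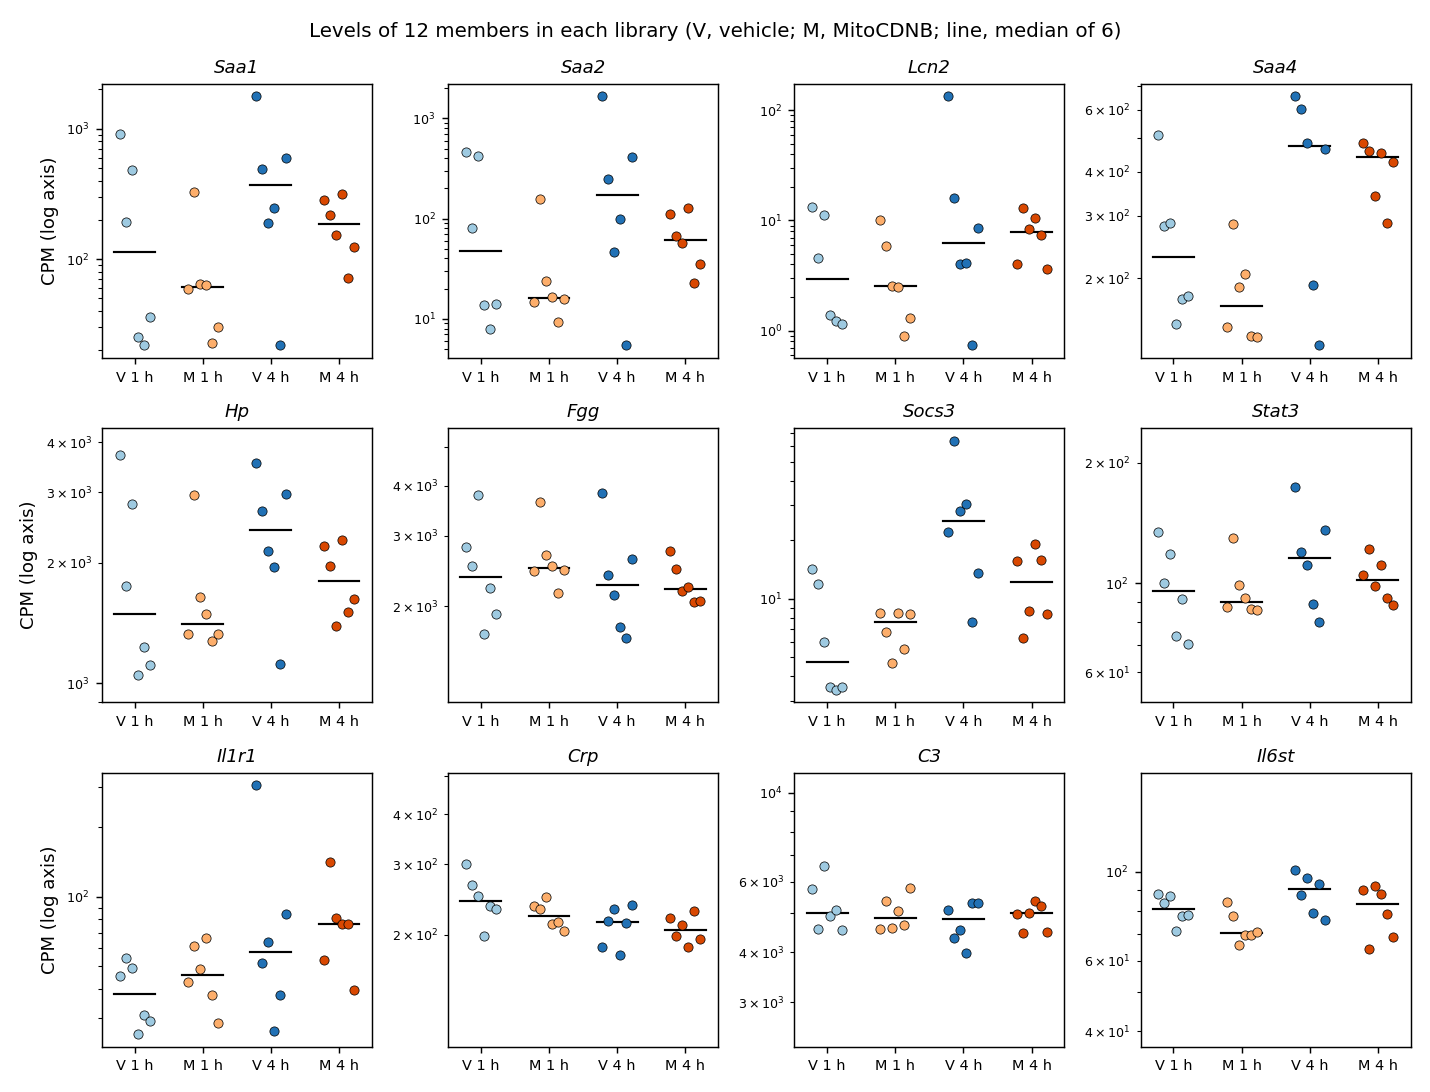
CPM on a log axis in each of the 24 libraries for 12 members, with a point per library, a column per group (V, vehicle; M, MitoCDNB; 1 h or 4 h) and a line at the median of 6. Saa1 runs from 21.9 to 1780 CPM within vehicle at 4 h alone, whereas Crp stays between 178 and 300 CPM over all libraries.

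Saa3, an amyloid made also outside the liver, was low, at 2.27 to 15.7 CPM in vehicle and 2.51 to 5.82 CPM in MitoCDNB at 1 h. The 4 h libraries held 1.67 to 18.5 CPM in vehicle and 1.87 to 3.95 CPM in MitoCDNB, with a log2 difference of -1.44 (SE 0.551, adjusted p = 0.22). The high vehicle libraries of 4 h were replicate 1 with 18.5 and replicate 2 with 16.6 CPM. Saa4, the amyloid expressed constitutively, was at 145, 285, 189, 205, 137 and 136 CPM in MitoCDNB at 1 h. By 4 h its level was 482, 459, 341, 452, 286 and 426 CPM in MitoCDNB. The 2 groups did not overlap, although replicate 5 of 4 h (286 CPM) came next to replicate 2 of 1 h (285 CPM).

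Lcn2 codes for lipocalin 2, which withholds iron from bacteria by binding their siderophores. It was at 13.4, 4.54, 11.2, 1.38, 1.22 and 1.15 CPM in vehicle at 1 h and at 0.899 to 10.2 CPM (median 2.52) in MitoCDNB. Among the 4 h libraries it was at 135, 16, 4.03, 4.13, 0.733 and 8.48 CPM in vehicle and at 3.64 to 13 CPM (median 7.89) in MitoCDNB. A single library, replicate 1 of vehicle, held 135 CPM, and the groups overlapped. The log2 difference of -1.83 at 4 h (SE 0.931, adjusted p = 0.389) was 0.25 without that library (adjusted p = 0.907). Without replicate 2 of MitoCDNB as well, it was 0.05 (adjusted p = 0.991). In replicate 1 of vehicle the 12 neutrophil markers summed to 6.68 CPM, within the 2.2 to 10.4 CPM of its group.

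C3 and the fibrinogen genes Fga, Fgb and Fgg, all abundant, varied less within groups than the amyloids and Lcn2. Their SD of log2 CPM was 0.16 for C3 and 0.34 to 0.38 for the fibrinogen genes. Genes of a level like that of the fibrinogen genes had a median SD of 0.18. The abundant Hp and Hpx had SDs of 0.55 and 0.41. C3 was at 4540 to 6560 CPM in vehicle and 4560 to 5780 CPM in MitoCDNB at 1 h, and at 3970 to 5320 and 4460 to 5380 CPM at 4 h. Its difference from vehicle was -0.07 at 1 h (95% interval -0.27 to 0.13) and 0.05 at 4 h (-0.15 to 0.25) on the log2 scale. Fga, Fgb and Fgg, the 3 chains of fibrinogen, lie together on chromosome 3. They were at medians of 3160, 2790 and 2370 CPM in vehicle and 3080, 3170 and 2490 CPM in MitoCDNB at 1 h. At 4 h the medians were 2900, 2760 and 2260 CPM in vehicle and 3280, 2810 and 2200 CPM in MitoCDNB. The log2 differences of the chains from vehicle lay between -0.07 and 0.13 over both times, with each interval spanning 0. All 3 were highest at 4 h in replicate 1 of vehicle, with 5590, 5200 and 3840 CPM. Fgl1, a liver protein related to fibrinogen, ranged more widely, from 67.4 to 381 CPM over the 24 libraries. Of Fgg, 5.5% of exon bases are shared with an antisense transcript, and the library kit's name does not mark strand.

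Hp was at 1050 to 3710 CPM (median 1490) in vehicle and 1280 to 2950 CPM (median 1410) in MitoCDNB at 1 h. At 4 h it was at 1120 to 3550 CPM (median 2410) in vehicle and 1390 to 2280 CPM (median 1800) in MitoCDNB, a log2 difference of -0.4 (95% interval -1.04 to 0.25, adjusted p = 0.623). Hpx was at medians of 1910 and 2050 CPM in vehicle and MitoCDNB at 1 h and of 2350 and 1780 CPM at 4 h, with a log2 difference of -0.26 at 4 h (adjusted p = 0.665). Cp differed little between libraries, from 555 to 814 CPM. Steap4, a ferric reductase of the cell membrane, was at 408, 333, 158, 112, 77 and 277 CPM in vehicle at 4 h. In MitoCDNB at 4 h it was at 131, 97.3, 112, 133, 118 and 93.9 CPM. Vehicle spanned the narrow range of MitoCDNB, and the log2 difference was -0.99 (SE 0.374, unadjusted p = 0.0147, adjusted p = 0.207).

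Crp, which is only weakly inducible in mice, stayed at 199 to 300 CPM in vehicle at 1 h and 187 to 229 CPM in MitoCDNB at 4 h. Apcs, the pentraxin that serves as an acute phase reactant in mice, was at 25.9 to 82.1 CPM over all libraries. Among the orosomucoids, which bind drugs and lipids in plasma, Orm1 was at 271 to 684, Orm2 at 3.26 to 31 and Orm3 at 0.433 to 4.49 CPM. Orm1 and Orm2 share 20.4% of their 50-base words, so their levels are uncertain in the same way as those of Saa1 and Saa2. The serine protease inhibitor Serpina3n was at 1310 CPM in replicate 1 of vehicle at 4 h and at 144 to 454 CPM in the other 5. Its relative Serpina3m was at 260 to 759 CPM in vehicle and 496 to 946 CPM in MitoCDNB at 4 h, with a log2 difference of 0.55 (SE 0.236, adjusted p = 0.277). Itih3 and Itih4, of the inter-alpha-trypsin inhibitor heavy chain family, were at 449 to 985 and 869 to 2480 CPM. Lbp, which hands endotoxin to its receptor, was at 50.1 to 139 CPM and the glycoprotein Lrg1 at 139 to 591 CPM.

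The comparison of MitoCDNB with vehicle at 1 h asked whether the compound changed the acute phase genes soon after the injection. At 1 h 0 of the 31 members passed the test, against 6.57% of all tested genes (2.70% higher and 3.87% lower). In edgeR 0 members had an unadjusted p under 0.05, against 2443 of the 13833 tested genes. DESeq2 and limma-voom called 0 members as well. Of the log2 differences, 25 were negative and 6 positive, with a median of -0.14 over the members and of 0 over all tested genes. The lean to lower values was that of replicates 1 to 3, where 29 differences were negative and 2 positive (median -0.31). In replicates 4 to 6 it ran the other way, with 7 negative and 24 positive (median 0.21). Mean Hp, for example, was 2750 CPM in vehicle and 1970 CPM in MitoCDNB in the first set, and 1130 and 1370 CPM in the second. Within replicates 1 to 3 Saa1 was at 191 to 904 CPM in vehicle and 58.9 to 329 CPM in MitoCDNB, and within replicates 4 to 6 at 21.8 to 35.9 and 22.6 to 63.3 CPM. The log2 difference of Saa1 was -1.81 (adjusted p = 0.497) in the first set and 0.48 (adjusted p = 0.698) in the second. Within replicates 4 to 6 alone 495 of 13429 tested genes passed the test, 2 members among them. Socs3, the feedback inhibitor, and Serpina3n passed there, higher in MitoCDNB by 1.09 (adjusted p = 0.0083) and 0.57 (adjusted p = 0.0161). Within replicates 1 to 3 their differences were -0.68 (adjusted p = 0.44) and -0.18 (adjusted p = 0.545). The difference between the sets was not tested, and within each set a group holds 3 libraries.

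At 4 h 0 of the 31 members passed the test, against 0.824% of all tested genes (0.455% higher and 0.369% lower). In edgeR 5 of the 31 members had an unadjusted p under 0.05, against 1981 of the 13833 tested genes. These members were Saa2, Saa3, Steap4 and Socs3 with lower values in MitoCDNB and Serpina3m with a higher one. DESeq2 and limma-voom called 0 members. Again 25 differences were negative and 6 positive, with a median of -0.21 over the members and 0 over all tested genes. Without replicate 1 of vehicle the difference of Il1r1 went from -0.28 to 0.56 and that of Serpina3n from -0.21 to 0.43. Without replicate 2 of MitoCDNB as well, these differences were 0.31 and 0.29. For the change in the MitoCDNB effect between 1 h and 4 h, 0 members passed the test against 4.07% of all tested genes (2.38% higher and 1.69% lower). An unadjusted p under 0.05 in edgeR was found for 0 members, against 2343 of the 13833 tested genes. DESeq2 and limma-voom called 0 members.

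**Figure D2:**
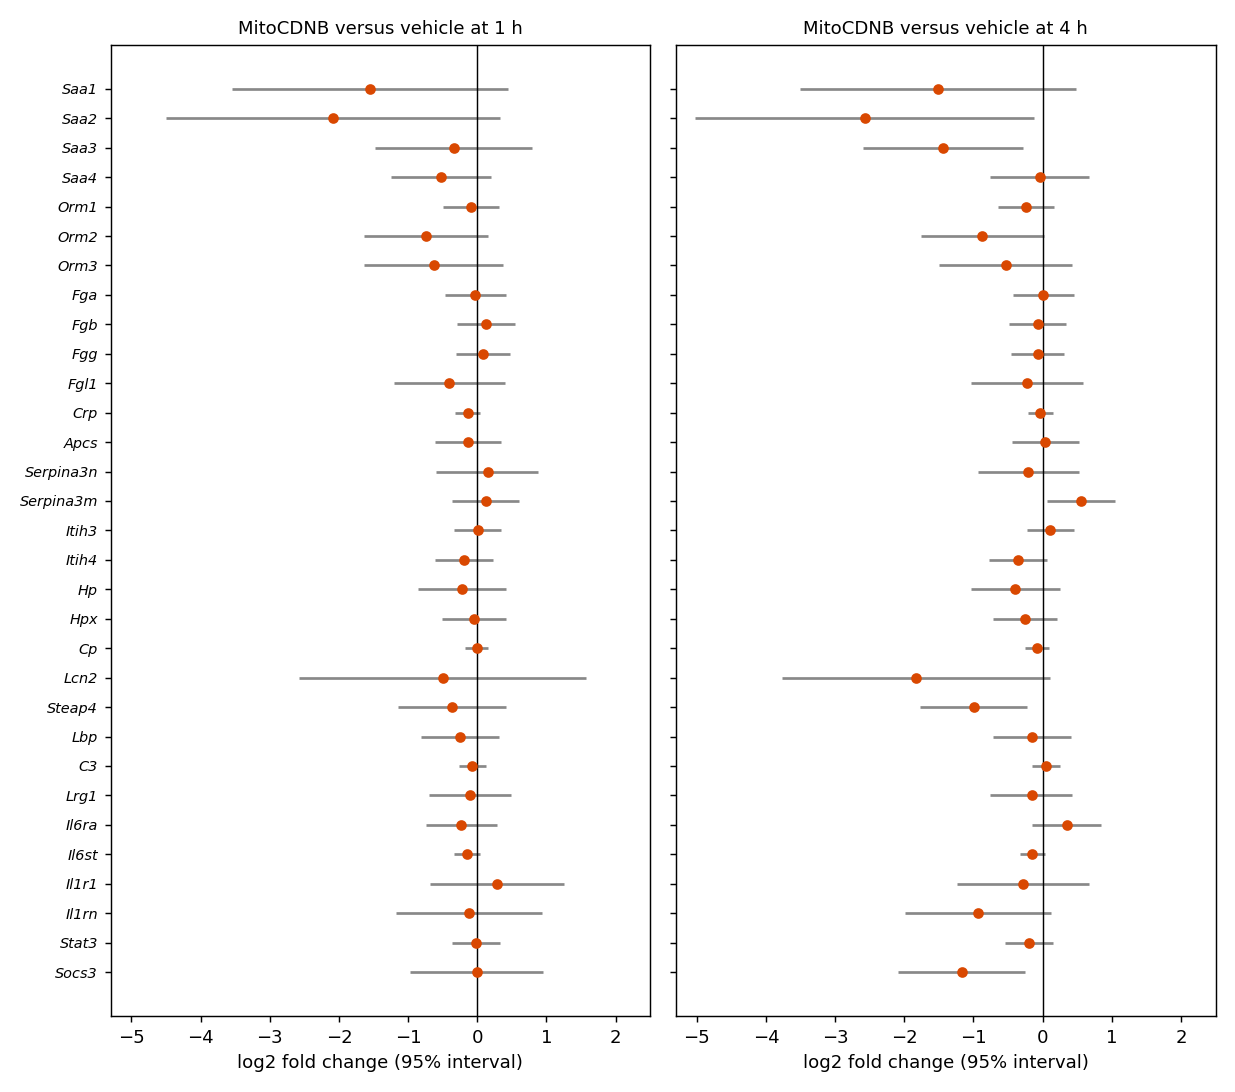
Log2 fold change of MitoCDNB against vehicle (x axis) for the 31 members at 1 h (left) and 4 h (right), with points for edgeR estimates from 6 libraries a group and bars for 95% intervals that are not adjusted for the number of genes. The bars of Saa1, Saa2 and Lcn2 span several log2 units, and those of Cp, Crp and C3 stay near 0.

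Among the signalling members, from receptor to inhibitor, Il6ra, the IL-6 binding receptor, was at 36.3 to 47.4 CPM in vehicle and 30.6 to 39.8 CPM in MitoCDNB at 1 h. The 4 h ranges were 24.4 to 75.8 and 39 to 86.4 CPM. Il6st, the subunit that passes the signal on, lay between 64.1 and 101 CPM in all 24 libraries, with a log2 difference from vehicle of -0.15 at each time (adjusted p = 0.438 at 1 h and 0.5 at 4 h). Il1r1, the signalling receptor of IL-1, was at 305, 51.8, 63.5, 26.3, 37.6 and 84.4 CPM in vehicle at 4 h and at 39.4 to 141 CPM (median 76.2) in MitoCDNB. Replicate 1 of vehicle was again the high library, and at 1 h all 12 libraries lay between 25.4 and 66.4 CPM. Il1rn was at 0.372 to 3.9 CPM over all libraries. Stat3 was at 70.7 to 134 CPM in vehicle and 85.6 to 130 CPM in MitoCDNB at 1 h, and at 80 to 174 and 88.2 to 122 CPM at 4 h.

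Socs3 was at 14.1, 11.9, 5.98, 3.51, 3.41 and 3.53 CPM in vehicle at 1 h. In MitoCDNB at 1 h it was at 8.45, 6.78, 4.67, 8.43, 5.49 and 8.31 CPM. At 4 h it was at 21.8, 64.3, 27.9, 30.4, 7.59 and 13.5 CPM in vehicle and at 15.6, 6.26, 8.63, 19, 15.7 and 8.32 CPM in MitoCDNB. The highest vehicle library of 4 h was replicate 2, not the replicate 1 that led the amyloids, and the vehicle and MitoCDNB ranges overlapped at both times. The log2 difference of MitoCDNB from vehicle at 4 h was -1.17 (SE 0.443, unadjusted p = 0.0154, adjusted p = 0.212).

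Vehicle at 4 h was compared with vehicle at 1 h to see what changed without the compound. Socs3 rose from 7.07 ± 4.74 to 27.6 ± 19.9 CPM (mean ± SD, n = 6), a log2 change of 1.96 (SE 0.457, 95% interval 1.01 to 2.91, adjusted p = 0.0143 in edgeR). It was the 1 member of 31 that passed, against 5.44% of all tested genes (2.99% higher and 2.46% lower), and the 2 groups overlapped. Leaving out any 1 of the 12 libraries kept the call, with log2 values of 1.51 to 2.28, the lowest without replicate 2 of 4 h. The call was lost in a fit of the 2 vehicle groups alone (adjusted p = 0.096). With only replicates 1 to 3 of 1 h the log2 change was 1.37 (adjusted p = 0.264), and with only replicates 4 to 6 it was 2.98 (adjusted p = 0.0192). Next by p were Serpina3n (log2 1.16, adjusted p = 0.0612), Il1r1 (1.28, adjusted p = 0.12) and Steap4 (1.02, adjusted p = 0.12). Lcn2 had a log2 difference of 2.35 (SE 0.957, adjusted p = 0.167).

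Between MitoCDNB at 1 h and MitoCDNB at 4 h, Saa4 rose from 183 ± 57.5 to 408 ± 76.8 CPM (mean ± SD, n = 6), a log2 change of 1.16 (SE 0.35, 95% interval 0.43 to 1.88, adjusted p = 0.0165 in edgeR). It too was the 1 member of 31 that passed, here against 28.5% of all tested genes (15.1% higher and 13.4% lower). Leaving out any 1 of the 12 libraries kept the call, with log2 values of 1.08 to 1.33. With only replicates 1 to 3 of 1 h the value was 0.98 (adjusted p = 0.138), and with only replicates 4 to 6 it was 1.35 (adjusted p = 0.0324). In vehicle the log2 difference of Saa4 between the times was 0.68 (SE 0.347, adjusted p = 0.294), and the difference between these 2 changes was 0.48 (SE 0.489, adjusted p = 0.691). Serpina3n was at 211 to 279 CPM at 1 h and 318 to 587 CPM at 4 h in MitoCDNB, without overlap, with a log2 difference of 0.8 and an adjusted p of 0.0966. Serpina3m had a log2 difference of 0.61 (adjusted p = 0.0561). Time after injection and library number cannot be told apart here, since 4 h libraries have the numbers 1 to 12 and 1 h libraries 13 to 24.

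Most members deviated from their group means in the same libraries as Saa1. It was taken as the reference after its spread had been seen, and each library's log2 CPM (with 0.5 added) was expressed as its deviation from the mean of its group, so that treatment and time were removed. Of the 30 other members, 25 had a Pearson r of at least 0.5 with Saa1 and 21 an r of at least 0.7. Among the 13802 other tested genes these shares were 2.77% and 0.326%, and the median r was -0.01. Permuting libraries within groups 100000 times gave an adjusted p under 0.05, over the 30 relations, for 25 members by Pearson's r and 24 by Spearman's rho. Since the 1 h sets stand apart, the relations were computed again with deviations centred and libraries exchanged only within a set of a group. Then 23 members had an r of at least 0.5, against 3.09% of the other tested genes, and 22 passed by Pearson's r and 20 by Spearman's rho. The 3 that no longer passed by Pearson's r were Socs3 (r = 0.39, adjusted permutation p = 0.272), Serpina3m (r = 0.48, adjusted p = 0.126) and Il1r1 (r = 0.57, adjusted p = 0.0962).

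The closest member was Saa2 (r = 0.98, rho = 0.98, adjusted permutation p = 3e-05 for both), followed by Hp (r = 0.96, rho = 0.94, adjusted p = 3e-05), Lrg1 (0.93 and 0.93, adjusted p = 3e-05) and Lbp (0.91 and 0.88, adjusted p = 3e-05). The unadjusted permutation p behind these values, 1e-05, is the smallest that the permutations can give. Saa1 and Saa2 may share reads, as stated above, and shared reads would raise the r of Saa2. Stat3 was close as well (r = 0.89, rho = 0.91), although its own SD was only 0.31. Steap4, Fga, Hpx and Saa4 each had an r of 0.87. The members under 0.5 were Il1rn (r = 0.37, adjusted p = 0.182), Crp (0.32, adjusted p = 0.242), Il6st (0.31, adjusted p = 0.144), Il6ra (0.3, adjusted p = 0.259) and C3 (0.29, adjusted p = 0.268). Socs3 had an r of 0.55 (adjusted p = 0.0327) and a rho of 0.43 (adjusted p = 0.0857).

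**Figure D3:**
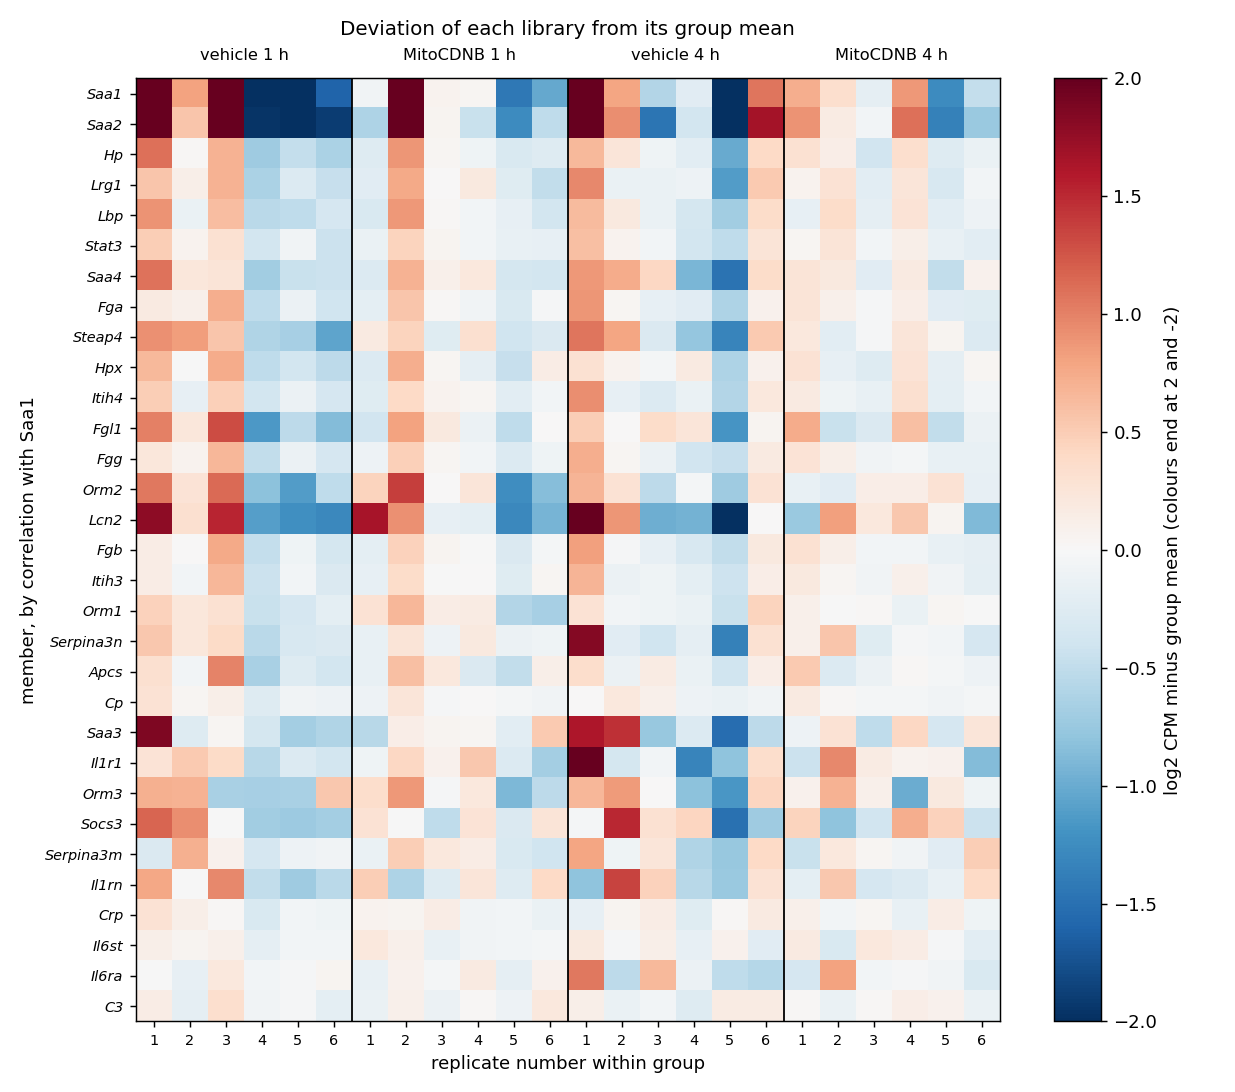
Deviation of log2 CPM from the group mean (colour, ending at 2 and -2) for the 31 members (rows, ordered by correlation with Saa1) in the 24 libraries (columns, by group and replicate number). Replicate 1 of vehicle at 4 h is red and replicate 5 blue in most rows, and the rows of Crp, Il6st and C3 are pale.

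Without the 2 libraries farthest from the Saa1 median, replicate 5 of vehicle at 4 h and replicate 1 of vehicle at 1 h, 23 members kept an r of at least 0.5, and the r of Socs3 was 0.31. Within the 4 h libraries (n = 12) 23 members reached 0.5, within replicates 1 to 3 of 1 h (n = 6) 22, and within replicates 4 to 6 of 1 h (n = 6), where Saa1 lay between 21.8 and 63.3 CPM, 15. In that last set the r of Fga was 0.15 and that of Stat3 -0.1. Points share the total count of their library, since CPM of all genes are set by it, and the background share of other genes was computed on the same scale.

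**Figure D4:**
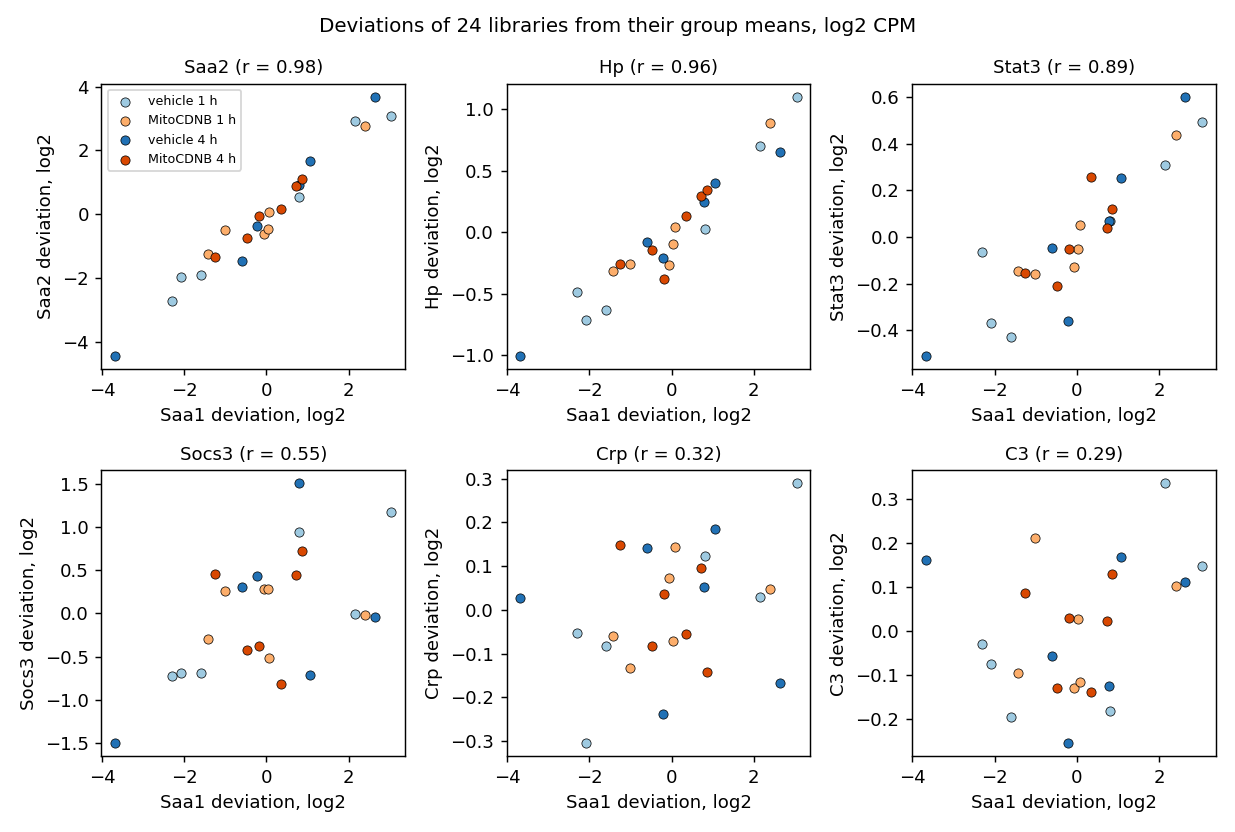
Deviation of log2 CPM from the group mean for Saa1 (x axis) and 6 other members (y axes), with a point for each of the 24 libraries coloured by group. Saa2, Hp and Stat3 lie along a line (r = 0.98, 0.96 and 0.89), and Crp and C3 do not (r = 0.32 and 0.29).

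The same libraries were high for most members. Replicate 1 of vehicle at 4 h had the highest value of its group for 24 of the 31 members and the highest of all 24 libraries for 16. Replicate 2 of MitoCDNB at 1 h had the highest value of its group for 22 members, and replicates 1 and 3 of vehicle at 1 h for 17 and 12. Replicate 5 of vehicle at 4 h had the lowest value of its group for 25 members, and replicate 4 of vehicle at 1 h for 19. In the high library of 4 h the summed Kupffer cell markers were at 273 CPM, within the 228 to 661 CPM of its group. In the vehicle libraries of 1 h, the 12 neutrophil markers summed to 9.82, 6.15 and 10.2 CPM in replicates 1 to 3 and to 5.37, 5.54 and 9.75 CPM in replicates 4 to 6. Their part in the differences between mice was not tested.

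Other genes of the pathway were examined in lists written down with the earlier results of these data known. Of 14 cytokine ligands 6 had enough counts, and Il6 itself was not among them, with 0 to 8 counts per library. At 1 h the IL-1 ligand gene Il1a rose from 3.78 ± 1.85 to 8.98 ± 1.83 CPM in MitoCDNB (log2 1.25, adjusted p = 0.0105), and at 4 h it fell, from 3.83 ± 1.88 to 1.49 ± 0.331 CPM (log2 -1.37, adjusted p = 0.0463). The change between the times passed the test (log2 -2.61, adjusted p = 0.000993). The call at 4 h was lost in 10 of the 12 fits that left out 1 library, with an adjusted p of up to 0.106 without replicate 3 of MitoCDNB. Within replicates 1 to 3 and 4 to 6 of 1 h the rise was 0.84 (adjusted p = 0.364) and 1.68 (adjusted p = 0.0507), and the change between the times was -2.21 (adjusted p = 0.0537) with only replicates 1 to 3.

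Of 23 tested receptors and signal transducers, 1 was higher at 1 h and 0 changed at 4 h. Tnfrsf1b, a tumour necrosis factor receptor, rose from 32.5 ± 4.58 to 73.7 ± 9.34 CPM at 1 h (log2 1.18, adjusted p = 7.76e-05). Of 16 inhibitors, the phosphatase gene Ptpn2 was higher at 1 h (log2 0.36, adjusted p = 0.0088) and Pias3, which blocks STAT3, lower (log2 -0.54, adjusted p = 0.0375), with 0 called at 4 h, where the smallest p belonged to Socs1 (log2 -1.66, adjusted p = 0.129). The Pias3 call was lost in 9 of 12 fits without 1 library, with an adjusted p of up to 0.0932 without replicate 1 of vehicle. Within replicates 1 to 3 and 4 to 6 the difference of Ptpn2 was 0.36 and 0.35, each with an adjusted p of 0.12, and that of Pias3 -0.63 (adjusted p = 0.0931) and -0.47 (adjusted p = 0.197). In the combined fit, counts of called genes in these lists stand against 6.57% of tested genes at 1 h and 0.824% at 4 h.

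Of 18 transcription factors of acute phase genes, 1 rose and 4 fell at 1 h, and 0 passed at 4 h. Foxa2, a pioneer factor of liver genes, was lower, at 21.5 ± 6.91 CPM in vehicle and 8.49 ± 0.948 CPM in MitoCDNB (log2 -1.34, adjusted p = 0.00597). Irf9, which works with STATs, fell by 0.33 (adjusted p = 0.00788) and Irf1 by 0.92 (adjusted p = 0.0305), while Rela, an NF-kB subunit, rose by 0.27 (adjusted p = 0.0206) on the log2 scale. The fourth that fell, Foxa1 (log2 -1.07, adjusted p = 0.0383), lies outside the rule for named genes and was picked after its value was seen. The Irf1 call was lost in 7 of 12 fits without 1 library, up to an adjusted p of 0.0989 without replicate 1 of vehicle. The Rela call was lost without replicate 3 of vehicle (adjusted p = 0.0563) and without replicate 5 of MitoCDNB (adjusted p = 0.0626). Within replicates 1 to 3 alone Irf9 had a log2 of -0.25 (adjusted p = 0.154) and Irf1 of -1.25 (adjusted p = 0.355), and Rela had 0.27 in each set (adjusted p = 0.28 and 0.12).

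Of 36 other tested positive acute phase genes, 2 were higher at 1 h and 1 at 4 h. Cd14, the endotoxin co-receptor, rose from 2.92 ± 1.25 to 11.7 ± 1.79 CPM at 1 h (log2 1.99, adjusted p = 0.000812). At 1 h the summed neutrophil markers were also higher in MitoCDNB, at 11.3 to 20.4 CPM against 5.37 to 10.2 CPM in vehicle, without overlap, although 0 of the 6 tested markers passed the test. The 20.4 CPM, in replicate 1, include 6.47 CPM of Ltf. By gene, S100a8, S100a9 and Retnlg did not overlap between the groups, and Cxcr2, Csf3r and Mmp9 did. Cxcr2 was at 0.207 to 0.559 CPM in vehicle and 0.264 to 0.53 CPM in MitoCDNB. S100a8 and S100a9 are also in the list of other positive acute phase genes. S100a8 was at 1.61 ± 0.929 CPM in vehicle and 4.02 ± 0.762 CPM in MitoCDNB (adjusted p = 0.0599). The part of neutrophils in the rises of Cd14 and Il1a was not tested. Agt, which codes for angiotensinogen, rose from 323 ± 27.8 to 428 ± 28.3 CPM at 1 h (log2 0.41, adjusted p = 0.00101) and from 307 ± 40.4 to 425 ± 17.4 CPM at 4 h (log2 0.47, adjusted p = 0.00327). Within replicates 1 to 3 of 1 h the value of Agt was 0.34 (adjusted p = 0.17). Of 15 genes that fall in the acute phase response, such as Alb and Ttr, 0 passed the test at either time in edgeR. At each time 3 of the 15 had an unadjusted p under 0.05, against 2443 of the 13833 tested genes at 1 h and 1981 at 4 h. The median log2 difference of the 15 genes was 0.05 at 1 h and 0.1 at 4 h. The lowest p among them at 1 h belonged to Apoa1 (log2 0.32, adjusted p = 0.0655 in edgeR) and at 4 h to Igfbp3 (log2 0.64, adjusted p = 0.111).

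Between the times, in vehicle 2 of the 23 receptors and transducers passed, Stat5b (log2 -0.7, adjusted p = 0.00435) and the adaptor Myd88 (log2 0.53, adjusted p = 0.0339), against 5.44% of tested genes. The Myd88 call was lost in 7 of 12 fits without 1 library, up to an adjusted p of 0.0857 without replicate 1 of 4 h. With only replicates 1 to 3 of 1 h the adjusted p was 0.0631 for Stat5b and 0.389 for Myd88. F3, which codes for tissue factor, rose in vehicle by 1.6 (adjusted p = 3.35e-05) and in MitoCDNB by 1.66 (adjusted p = 1.83e-07). In MitoCDNB 3 receptors and transducers rose and 5 fell of 23, 5 transcription factors rose and 3 fell of 18, and 1 other positive acute phase gene rose and 8 fell of 36, against 28.5% of tested genes. The neutrophil alarmins S100a8 and S100a9 fell by 3.09 (adjusted p = 3.65e-05) and 3.16 (adjusted p = 9.63e-07), and 6 of the 6 tested neutrophil markers, which include both, were lower at 4 h. The summed level of all 12 neutrophil markers, Ltf included, was 11.3 to 20.4 CPM in MitoCDNB at 1 h and 2.44 to 4.17 CPM at 4 h.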

How the data were processed

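Liver polyA RNA of 24 mice was sequenced after extraction with the PureLink RNA Mini kit and preparation with the NEBNext Ultra RNA kit, per the labels' protocols. The authors deposited 1 table of raw read counts per gene, 24421 genes by 24 libraries, with CASAVA 1.8.4, Trim Galore, HISAT2, DESeq2 and the build mm10 named in the submitters' processing notes. The counting tool, its annotation and its handling of reads with several matches do not appear in those notes, so counts of close paralogs may share reads.

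From these counts, genes with a minimum count of 10 were kept by filterByExpr in edgeR 4.0.16 (R 4.3.3), libraries were scaled by TMM, and a model with a mean for each of the 4 groups was fitted to all 24 libraries with the robust quasi-likelihood F test. The 5 comparisons were adjusted by the Benjamini-Hochberg method over 13833 genes each, with calls made under an adjusted p of 0.05. DESeq2 1.42.0, limma 3.58.1 with voom, RLE scaling, no filter, a replicate block, a term for the 1 h sets, subsets and leaving out each library were alternatives. The deviations used log2 of CPM with 0.5 added. Relations computed within the 1 h sets were chosen after seeing the data. The p-values measure the spread between mice as labelled. The procedure was tested on simulated data. Named were every member, with full values for those called, the 6 most abundant and the 6 with the largest spread, and up to 4 called genes of each pathway list per comparison, or the gene with the smallest p; 1 gene that this rule names is not reported here. The members and lists were chosen with earlier results of these data known. Promoters come from RefSeq on GRCm38.p6, and transcript lengths from GENCODE M21.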

Additional observations from a re-analysis of the deposited data

Results flagged for a closer look

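In 19 of 124 groups of 6 values (31 members in 4 groups), 1 library lay so far from the rest that its gap to the next value exceeded Dixon's 95% critical share of the range. Chance flags about 1 in 20 groups of normally distributed values, a rate that was not computed for CPM as skewed as these. All 19 lay on the high side, and on log2 CPM 11 groups passed, 9 high and 2 low. The flags share libraries. Replicate 2 of MitoCDNB at 1 h was the high library for 8 members. It held 329 CPM of Saa1 (next 64.8), 157 of Saa2 (next 23.7), 4650 of Fga (next 3230) and 3650 of Fgg (next 2680). It also held 2950 CPM of Hp (next 1640), 783 of Cp (next 673), 119 of Lbp (next 66) and 130 of Stat3 (next 98.9). Replicate 1 of vehicle at 4 h was the high library for 6 members, with 1780 CPM of Saa1 (next 599), 1670 of Saa2 (next 412) and 5590 of Fga (next 3200). Its other 3 were Serpina3n at 1310 CPM (next 454), Lcn2 at 135 (next 16) and Il1r1 at 305 (next 84.4). The remaining 5 were Saa3 at 15.7 CPM in replicate 1 and Serpina3m at 656 CPM in replicate 2 of vehicle at 1 h, Apcs at 50.6 and Cp at 657 CPM in replicate 1 of MitoCDNB at 4 h, and Il6ra at 86.4 CPM in replicate 2 of that group.

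The MitoCDNB effect differed between 4 h and 1 h, by the edgeR test of the difference, for the genes of the pathway lists given here and for 0 members. The log2 differences were -2.61 for Il1a (adjusted p = 0.000993), -1.55 for Tnfrsf1b (adjusted p = 0.000441) and 2.04 for Foxa2 (adjusted p = 0.00496). For the neutrophil alarmins they were -2.54 for S100a9 (adjusted p = 0.00342) and -2.46 for S100a8 (adjusted p = 0.0306). Smaller ones were -0.48 for Ptpn2 (adjusted p = 0.0229), -0.47 for Jak2 (adjusted p = 0.0306) and -0.38 for Rela (adjusted p = 0.03). In the 24 fits that left out 1 library, the call was lost in 8 for S100a8 (adjusted p up to 0.0684, without replicate 2 of vehicle at 4 h), in 10 for Jak2 (up to 0.0608) and in 6 for Rela (up to 0.0605), the last 2 without replicate 3 of MitoCDNB at 4 h. With only replicates 1 to 3 or only 4 to 6 of 1 h, the call was lost either way for Foxa2 (adjusted p = 0.0695 and 0.124), Ptpn2 (0.144 and 0.135), S100a8 (0.156 and 0.173), Rela (0.216 and 0.116) and Jak2 (0.325 and 0.0839). It was lost for Il1a with replicates 1 to 3 (adjusted p = 0.0537), and held for Tnfrsf1b (0.0263 and 0.0237) and S100a9 (0.0407 and 0.0476).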

How the results depend on the processing

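Of 3689 values of members under an alternative, 3662 stayed on their side of the threshold with the call's direction, 23 passed it anew, 3 lost it and 1 reversed, while 318 changed sign without a call either way. In the main fit only Socs3 in vehicle over time and Saa4 in MitoCDNB over time were called. Most of these values therefore had no call to lose. Calls of members at 4 h and for the difference of the effects stayed at 0 in every alternative run. Over all tested genes these runs gave 18 to 412 calls at 4 h and 150 to 913 for the difference. At 1 h, replicates 4 to 6 alone gave 2 calls, against 495 of 13429 tested genes, with Socs3 at 1.09 in place of -0.01. In vehicle over time the 1 call became 3 with DESeq2 (1097 of 13234 tested genes called) and 0 in the compared groups alone (415 of 13416). It became 2 with a term for the 1 h sets (803 of 13833). With only replicates 1 to 3 of 1 h it became 0 (177 of 14059), and with only replicates 4 to 6 it became 3 (309 of 14108). When 1 library was left out it was 1 to 2, with 480 to 749 tested genes called. In MitoCDNB over time the 1 call became 2 with DESeq2 (4174 of 16281 tested genes called) and 3 with limma-voom (4776 of 13833). It became 6 in the compared groups alone (3993 of 13345) and 3 with the term for the sets (3980 of 13833). Without the 2 libraries of 4 h that stand apart it became 2 (4097 of 13908), and with only replicates 1 to 3 of 1 h it became 0 (2395 of 14059). When 1 library was left out it was 1 to 3, with 3457 to 3901 tested genes called. The fits with only 3 replicates of 1 h beside all 4 h libraries were chosen after seeing the data. The cause was not tested. With the replicate block, vehicle over time had 1 call (Socs3, adjusted p = 0.0486) and MitoCDNB over time 2, against 682 and 3970 of 13833 tested genes. Vehicle and MitoCDNB libraries of the same time and replicate number have adjacent library numbers. Over all tested genes the deviations of such libraries correlated at -0.23 to 0.32, and for 3 of 12 the best match carried their own number. A correlation over all genes cannot show whether mice were handled in pairs, and the main fit assumed no pairs. Genes under about 1 CPM, such as Il1rn, and the cytokine genes with few counts limit what this depth shows.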

Other observations

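Genes outside the 31 followed Saa1 across mice in the same way, described here by Pearson's r of deviations from group means (n = 24) and not tested. Of 36 other positive acute phase genes, 19 had an r of at least 0.5 (52.8%), against 2.77% of the tested genes that are no members. They included the complement genes C4b (0.85), Cfb (0.75) and C9 (0.73), the methyltransferase gene Nnmt (0.8) and the metallothionein genes Mt2 (0.69) and Mt1 (0.65). Hamp, which codes for the iron hormone hepcidin, had an r of 0. Of 15 genes that fall in the acute phase response, 1 reached 0.5, the transferrin gene Trf (0.57), and Alb stood at -0.34. Among 6 tested cytokine ligands 0 reached 0.5. Among markers of other cells, 3 of 6 neutrophil genes (S100a8, S100a9 and Cxcr2), 1 of 10 Kupffer cell genes (Clec4f) and 1 of 5 monocyte genes (Itgam) did, and their part in the pattern was not tested. Over all other tested genes the closest were Qsox1 (0.86), C4b, Prg4 (0.85), Ccl6 (0.84) and Clu (0.82), picked by their values.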
